A study of Mus musculus with 6 samples.

Results

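The annexins measured here were Anxa1, Anxa2, Anxa3, Anxa4, Anxa5, Anxa6 and Anxa7, in livers of obese diabetic mice. Members were all probe sets that the platform annotation names with a single symbol among 8 listed annexins, and 14 of the 22626 non-control probe sets met this rule. They stood for 7 of the 8 genes, since the probe set of Anxa11 carries several gene symbols and so names no single gene. The study compared 3 livers of male KK/H1J mice given an adenovirus with a PFK-2/FBPase-2 without bisphosphatase activity (BPD mice 23, 28 and 36) with 3 livers given an adenovirus with green fluorescent protein (GFP mice 22, 29 and 31). This enzyme normally both makes and removes fructose 2,6-bisphosphate, a sugar phosphate that drives glycolysis. The age labels give 12 to 14 weeks for all mice, although the free text for BPD mouse 28 gives a lower first number. They weighed about 35 g, ate freely and were injected through the tail vein with the same stated dose, and livers were taken 7 days later. KK/H1J is an inbred strain in which many genes together cause obesity and type 2 diabetes. Every mouse thus carried an adenovirus, no uninjected mouse was analysed here, and the promoter of either virus is not given in the sources used here. Each liver was hybridised to 1 array.

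Annexins are cytosolic proteins that bind acidic phospholipids when calcium rises. They share a conserved core that holds the calcium and lipid sites, and differ in an amino-terminal tail that binds partners such as S100 proteins. They organise membrane domains, vesicle traffic and the repair of torn plasma membrane. Some also act outside the cell, Anxa1 as an anti-inflammatory ligand of formyl peptide receptors and Anxa2 as a surface receptor for plasminogen. In liver several annexins are known from hepatocytes, and Anxa1, Anxa2, Anxa3 and Anxa5 also from macrophages, stellate cells and bile duct cells.

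Most of the called annexins were higher in BPD livers. Anxa1, Anxa2, Anxa3 and Anxa5 were higher in BPD livers, Anxa7 was lower, and Anxa4 and Anxa6 were not called. On the log2(signal + 16.3) scale, centred on each array's median, the differences BPD minus GFP ran from 2.09 ± 0.35 for Anxa2 to -0.60 ± 0.16 for the brighter Anxa7 probe set (SE of the limma fit, n = 3 livers each). A gene counts as called when the limma adjusted p (Benjamini-Hochberg over 13575 probe sets bright enough to test) is under 0.05. By this rule 4 of 7 annexin genes rose, against 8.75% of all 8151 genes tested, and 1 fell, against 22.2%. The fall of 1 gene did not exceed the share over all genes. Each gene is represented by its brightest probe set, and all 7 had a mean GFP signal between 157 and 2114, above the brightness filter of 98.8, so none passed it through the BPD livers alone. Among 11 annexin probe sets tested, 4 were higher and 2 lower, against 8.29% and 20.3% of all probe sets. Scaling moved the zero point, and the difference BPD minus GFP of the median gene was -0.22 on the centred values, 0.08 on the signals as deposited, and -0.06 once quantile-normalized. In bulk liver, a change in the number of cells of a type and a change in RNA per cell cannot be told apart.

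The start regions of 3 genes that rose (Anxa1, Anxa2 and Anxa5) and of the one called lower on the centred values (Anxa7) are shown. RefSeq promoters of build GRCm38.p6, 250 bases before to 50 after the start, were available for 6 of the 8 listed annexins, among them Anxa4 and Anxa11. Capitals mark the motifs searched on both strands, namely AP-1 (TGAGTCA), the GC box (GGGCGG), the CCAAT box (CCAAT), the TATA box (TATAAA) and the E box (CACGTG). Of 32851 promoters of the same length, 5.2% held the AP-1 letters, 35.7% the GC box, 37.4% the CCAAT box, 13.6% the TATA box and 7.15% the E box. Anxa2 lies on the plus strand (chr9:69453433-69453732), and Anxa1 (chr19:20390622-20390921), Anxa5 (chr3:36475838-36476137) and Anxa7 (chr14:20479892-20480191) on the minus strand.
Anxa1: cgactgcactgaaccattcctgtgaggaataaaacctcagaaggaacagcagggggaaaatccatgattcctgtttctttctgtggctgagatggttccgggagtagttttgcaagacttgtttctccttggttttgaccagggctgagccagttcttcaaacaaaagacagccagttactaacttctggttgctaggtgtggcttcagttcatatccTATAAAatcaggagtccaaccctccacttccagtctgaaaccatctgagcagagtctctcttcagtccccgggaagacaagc
Anxa2: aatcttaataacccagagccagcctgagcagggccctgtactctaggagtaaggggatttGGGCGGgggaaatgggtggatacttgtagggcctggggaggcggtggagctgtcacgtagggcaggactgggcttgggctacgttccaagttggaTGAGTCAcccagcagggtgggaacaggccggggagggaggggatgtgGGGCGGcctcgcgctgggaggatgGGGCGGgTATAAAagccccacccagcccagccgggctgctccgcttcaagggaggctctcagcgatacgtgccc
Anxa5: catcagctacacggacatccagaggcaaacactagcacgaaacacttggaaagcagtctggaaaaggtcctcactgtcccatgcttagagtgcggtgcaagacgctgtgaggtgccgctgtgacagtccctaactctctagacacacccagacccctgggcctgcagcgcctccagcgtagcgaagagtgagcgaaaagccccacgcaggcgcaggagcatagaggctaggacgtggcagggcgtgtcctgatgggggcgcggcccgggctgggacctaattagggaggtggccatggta
Anxa7: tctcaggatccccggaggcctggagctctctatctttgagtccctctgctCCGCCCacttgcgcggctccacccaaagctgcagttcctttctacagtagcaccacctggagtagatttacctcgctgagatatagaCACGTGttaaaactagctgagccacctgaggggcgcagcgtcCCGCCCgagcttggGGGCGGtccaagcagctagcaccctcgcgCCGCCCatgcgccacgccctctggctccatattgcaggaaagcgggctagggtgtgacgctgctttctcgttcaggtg
Anxa1 and Anxa2 each held 1 TATA box, which begins 32 and 17 bases before the listed start. Anxa2 also held 1 AP-1 element, beginning 95 bases before the start, and 3 GC boxes. The Anxa7 window held 4 GC boxes and 1 E box, and the Anxa5 window none of the letters searched. A further listed start of Anxa7 has an overlapping window (chr14:20480084-20480383) with 1 GC box, no E box and a GC content of 44.7%. The GC content was 47.3% for Anxa1, 63.7% for Anxa2, 60.3% for Anxa5 and 60.7% for Anxa7, with a median of 52.7% over all promoters. These matches describe the letters of the windows and do not show binding.

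Anxa2, which joins S100a10 in a membrane-bound tetramer, had signals of 4350, 3317 and 1623 in BPD livers 23, 28 and 36 and of 641, 629 and 373 in GFP livers 22, 29 and 31. Every BPD liver lay above every GFP liver, and BPD liver 36 was the lowest of its group. The GFP mean was 548 ± 151 and the BPD mean 3097 ± 1377 (SD over 3 livers). On the log2 scale Anxa2 rose by 2.09 ± 0.35, or 4.26-fold (limma adjusted p = 0.0029). Only 125 of the 13575 probe sets had a higher difference. This probe set can match several Anxa2 transcripts. A dimmer Anxa2 probe set gave 148, 131 and 157 in BPD and 23.4, 89.8 and 26.9 in GFP livers, again without overlap. It was too dim for the main test, and without the filter its difference was 1.21 ± 0.35 (limma adjusted p = 0.0496, against 5.27% of probe sets higher in that fit). The remaining Anxa2 probe set lay between 1.90 and 3.63 in all 6 livers, below the added constant, and carries no readable level.

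Anxa1, a glucocorticoid-induced protein that restrains neutrophil entry and phospholipase A2, had signals of 1495, 1355 and 511 in BPD livers 23, 28 and 36 and of 206, 265 and 189 in GFP livers 22, 29 and 31. The groups did not overlap, and BPD liver 36 stood between the GFP livers and the other BPD livers. Anxa1 rose by 1.84 ± 0.34 on the log2 scale, or 3.57-fold (limma adjusted p = 0.0048), to a BPD mean of 1120 ± 532 (SD over 3 livers). Anxa1 and Anxa2 kept their calls under every alternative that tested them, with differences from 1.53 to 2.30 for Anxa1 and from 1.76 to 2.47 for Anxa2.

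Anxa3, an annexin abundant in neutrophils and macrophages, gave 649, 550 and 278 in BPD and 119, 241 and 110 in GFP livers. GFP liver 29 came close to BPD liver 36, although the groups did not overlap. Anxa3 rose by 1.25 ± 0.33, or 2.38-fold (limma adjusted p = 0.020). It was not called without BPD mouse 23 (0.99, adjusted p = 0.065), BPD mouse 28 (1.18, 0.073), GFP mouse 22 (1.16, 0.066) or GFP mouse 31 (1.07, 0.058).

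Anxa5, which binds phosphatidylserine and serves as a probe for dying cells, gave 3529, 3312 and 2230 in BPD and 1488, 1747 and 1514 in GFP livers. All BPD livers were again higher, with liver 36 the lowest of them. Anxa5 rose by 0.60 ± 0.19, or 1.52-fold (limma adjusted p = 0.042), and by 0.90 and 0.98 on the deposited and the quantile-normalized values, both called. It was not called without BPD mouse 23 (0.45), BPD mouse 28 (0.57), GFP mouse 22 (0.60), GFP mouse 29 (0.62) or GFP mouse 31 (0.58), and was called at 0.78 without BPD mouse 36. Groups that did not overlap with BPD higher, as in these 4 genes, were found for 12.7% of all probe sets tested.

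**Figure D1:**
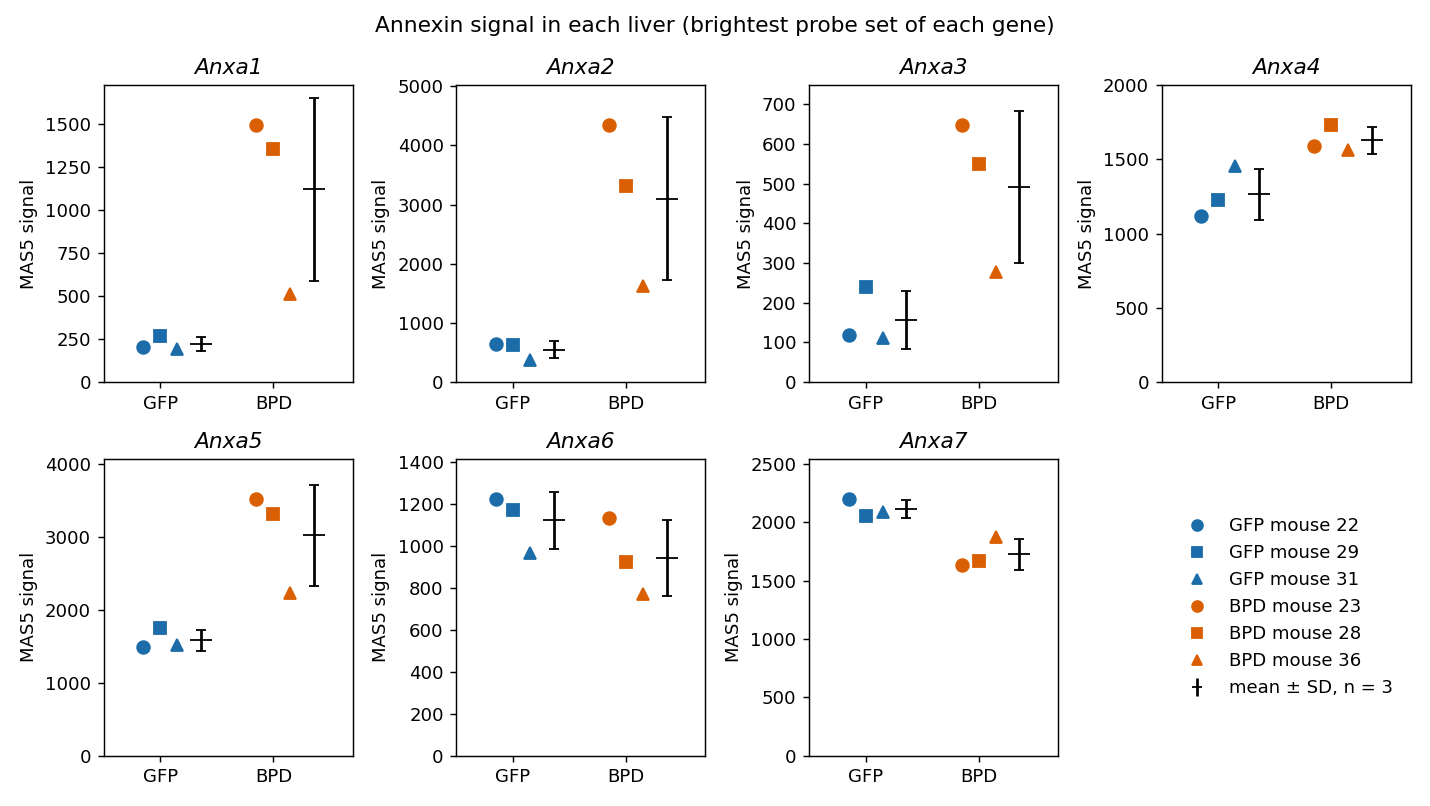
MAS5 signal (linear scale, each panel with its own axis from 0) of the brightest probe set of each of 7 annexin genes in 3 GFP and 3 BPD livers; each symbol is 1 mouse and the black bar is the mean ± SD (n = 3). Anxa1, Anxa2, Anxa3 and Anxa5 are higher in every BPD liver than in every GFP liver, with BPD mouse 36 lowest of its group, and brightness cannot be compared between panels.

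Anxa7, also called synexin, which fuses secretory granules and binds sorcin, was the member that fell. Its brighter probe set gave 1629, 1666 and 1876 in BPD and 2202, 2057 and 2084 in GFP livers, and a dimmer one gave 443, 379 and 506 against 711, 685 and 664. In both, every BPD liver lay below every GFP liver, as for 34.0% of all probe sets tested. The dimmer probe set fell by 0.92 ± 0.18 on the log2 scale (limma adjusted p = 0.0062), and was called on the deposited scale (-0.62, adjusted p = 0.017, against 9.68% of probe sets lower there), with quantile normalization (-0.79, 0.012) and with any mouse left out (-1.04 to -0.77). The brighter one fell by 0.60 ± 0.16 (limma adjusted p = 0.024), but was not called with the deposited scaling (-0.29, adjusted p = 0.105) or quantile normalization (-0.23, 0.175), nor when BPD mouse 23, BPD mouse 28, GFP mouse 22 or GFP mouse 31 was omitted (adjusted p from 0.061 to 0.096). The direction of Anxa7 was thus the same in both tested probe sets, and its size and call depended on the probe set and the scaling. The remaining probe set was too dim to test, with signals of 46.5 to 124 in BPD and 93.6 to 118 in GFP livers that overlapped.

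Anxa6, which carries an extended core and binds late endosomes and p120 RasGAP, gave 1137, 924 and 772 in BPD and 1227, 1172 and 970 in GFP livers on its brightest probe set. These signals overlapped, and after centring the BPD livers lay just below the GFP livers. The difference of -0.56 ± 0.20 was not called (limma adjusted p = 0.061), and the other Anxa6 probe sets had differences of -0.42 ± 0.18 and -0.36 ± 0.26 (limma adjusted p of 0.102 and 0.317). Anxa6 was called lower without BPD mouse 23 (-0.73, adjusted p = 0.032) and with array weights (-0.59, 0.034), and its difference shrank to -0.26 with the deposited scaling.

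Anxa4, an annexin of secretory and biliary epithelium, gave 1592, 1734 and 1564 in BPD and 1118, 1227 and 1454 in GFP livers, and on its dimmer probe set 509, 562 and 506 against 398, 384 and 375. All BPD livers were higher before centring, and the groups overlapped after it. The centred differences were 0.07 ± 0.16 and 0.13 ± 0.15 (limma adjusted p of 0.779 and 0.537). On the deposited scale they were 0.37 ± 0.14 and 0.43 ± 0.13, and the dimmer probe set was called (limma adjusted p = 0.042, against 16.7% of probe sets higher there). With quantile normalization neither was called (0.38 and 0.25, against 12.5%).

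**Figure D2:**
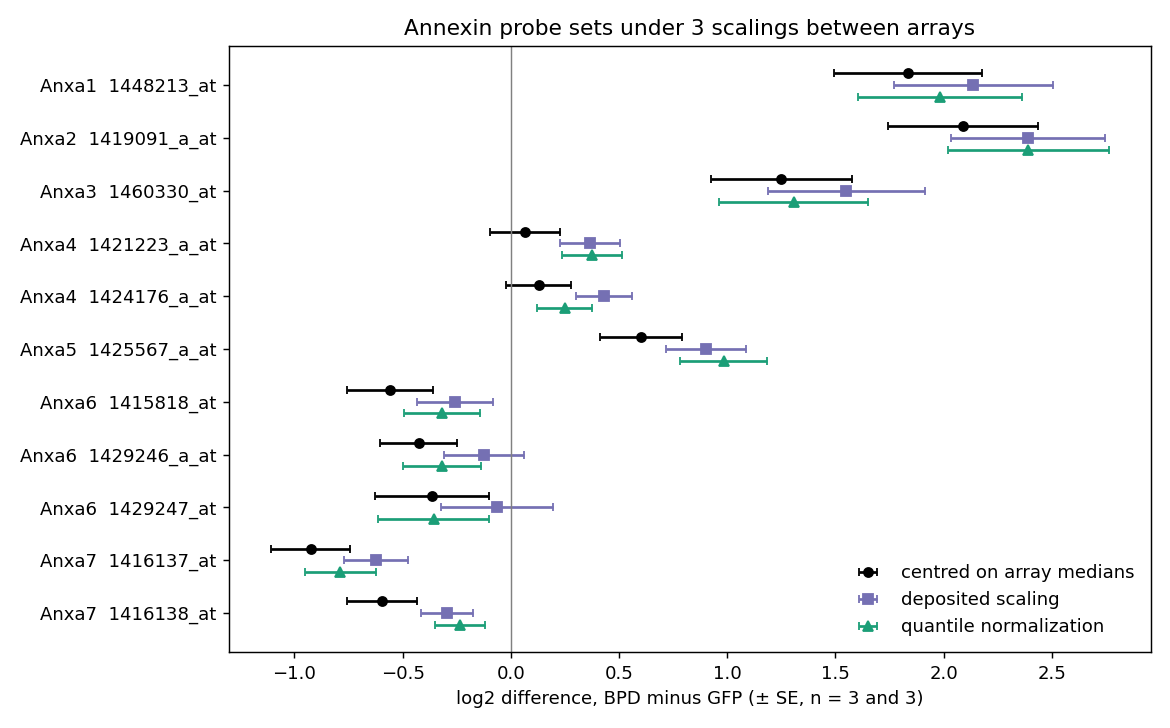
Log2 difference BPD minus GFP (x axis, ± SE of the limma fit, n = 3 and 3) for the 11 annexin probe sets tested, under centring on array medians (black circles), the deposited scaling (violet squares) and quantile normalization (green triangles). Anxa1, Anxa2, Anxa3 and Anxa5 lie above 0 and both Anxa7 probe sets below 0 under all 3 scalings, while Anxa4 moves from 0.07 to 0.37.

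Differences between annexins within an array are the same with and without centring, though quantile normalization can alter them. Of 21 pairs of the 7 genes, 16 had within-array log2 differences that did not overlap between the groups, against 47.7% of all pairs of the 8151 genes tested. After quantile normalization the number was again 16. For these pairs the exact 2-sided permutation test gave p = 0.1, the smallest value that 3 against 3 arrays allow, and 0.131 after adjustment over the 21 pairs, so no pair could reach 0.05. On the centred values, relative to Anxa7, Anxa2 was higher by 2.68 in BPD than in GFP livers, and the within-array values were 1.41, 0.99 and -0.21 in BPD livers 23, 28 and 36 and -1.75, -1.68 and -2.43 in GFP livers 22, 29 and 31. Relative to Anxa6, Anxa5 was higher by 1.16, at 1.62, 1.82 and 1.51 against 0.27, 0.57 and 0.63. Anxa4 fell behind Anxa5 by 0.53 and ran ahead of Anxa7 by 0.66, both without overlap. The pairs that overlapped were Anxa1 with Anxa2 (-0.25), Anxa3 with Anxa4 (1.18) and with Anxa5 (0.65), Anxa4 with Anxa6 (0.62), and Anxa6 with Anxa7 (0.04, and -0.09 after quantile normalization). The exact permutation p of the last pair was 1.

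The annexins also differed in which livers they set apart. Relative to the mean of the GFP livers, Anxa2 was higher by 2.75, 2.20 and 1.32 in BPD livers 23, 28 and 36, Anxa1 by 2.45, 2.15 and 0.91, Anxa3 by 1.78, 1.39 and 0.58, and Anxa5 by 0.91, 0.66 and 0.23. The order of the 3 BPD livers was the same in these 4 genes. Anxa7 had another order, at -0.61, -0.74 and -0.43. Anxa6, at -0.22, -0.67 and -0.78, kept the order but lay farthest from the GFP mean in liver 36. Over the 6 livers, each gene set to its own mean, the root-mean-square distance between 2 genes was 0.25 for Anxa1 and Anxa2, 0.24 for Anxa6 and Anxa7, and 1.45 for Anxa2 and Anxa7. Genes that vary little come close more easily, and among 8016 genes the one nearest to Anxa7 lay at 0.03.

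Markers of other liver cells also differed between the groups, where 8.75% of all genes rose and 22.2% fell. Of 17 measured macrophage markers 12 rose, and the summed signal of the list ranged from 29438 to 60102 in BPD and from 7164 to 25416 in GFP livers. Relative to all genes the macrophage median was 2.04, 1.94 and 1.15 in BPD livers 23, 28 and 36 and 0.01, 0.92 and -0.89 in GFP livers 22, 29 and 31. GFP liver 29 was the highest GFP liver in this list and for Anxa1, Anxa3 and Anxa5, while Anxa2 was highest in GFP liver 22 (0.35 against 0.13 in GFP liver 29). Of 16 stellate cell and matrix genes 7 rose, with sums from 13579 to 31540 against 7078 to 8162 and medians of 1.87, 1.84 and 0.29 in the BPD livers, the lowest again in liver 36. Of 7 neutrophil markers 4 rose (sums from 2065 to 8583 against 647 to 1022), and of the bile duct markers Cd24a and Krt23 rose, while the defining Krt7, Krt19 and Epcam were too dim to test. Hepatocyte markers fell in 13 of 13 cases after centring, in 9 as deposited and in 4 with quantile normalization. Of all probe sets 9.68% were lower as deposited and 12.1% with quantile normalization. The hepatocyte sums ran from 141377 to 152248 in BPD and from 209617 to 222267 in GFP livers. Of 12 endothelial markers 1 rose and 1 fell, with medians of 0.27, 0.40 and -0.19 in the BPD livers, and of 6 lymphocyte markers 1 rose, with medians of 0.92, 1.59 and 0.56. Liver 36 was the highest BPD liver in the erythroid list and for the adipose or mesothelial marker. Of 10 proliferation genes 10 rose, with medians of 2.50, 2.64 and 2.46 in livers 23, 28 and 36. Of 3 erythroid genes 2 rose and 1 fell (0.95, 1.53 and 2.12), the only tested adipose or mesothelial marker rose (2.28, 1.87 and 2.59), and neither of 2 pancreas markers was called. Apart from 1 pancreas and 1 adipose or mesothelial marker, no gene of these lists lay below the added constant in all 6 livers. The part of these cells in the annexin differences was not tested.

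**Figure D3:**
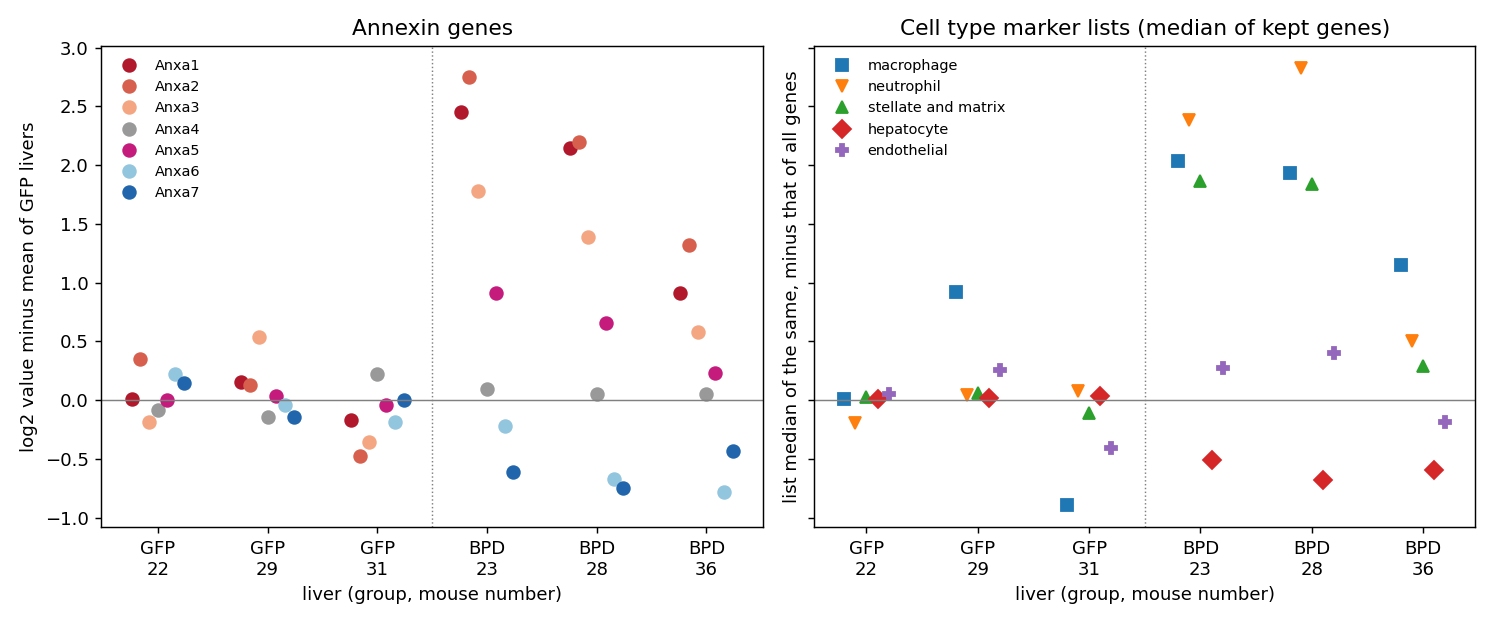
Left, centred log2 value of each of 7 annexin genes in each liver minus the mean of the GFP livers; right, the same for marker lists of 5 cell types, as the median over tested genes minus the median over all genes. The x axis gives the 3 GFP and 3 BPD mice, points are spread sideways for legibility, and in BPD mouse 36 Anxa1, Anxa2, Anxa3 and Anxa5 as well as the macrophage, neutrophil and matrix medians are lower than in BPD mice 23 and 28.

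Among 8016 tested genes, leaving out those with clone names, those whose 6 centred values ran nearest to a called annexin were found by root-mean-square distance, a description without a test. Nearest to Anxa2 were Golm1, a Golgi membrane protein (distance 0.12), Klf6, a zinc finger transcription factor (0.16), and Ms4a6d, a gene of myeloid cells (0.17). Nearest to Anxa1 were Golm1 (0.19), Fstl1, a secreted glycoprotein (0.19), and Acot9, a mitochondrial thioesterase (0.21). Anxa3 ran nearest to Fcgr3, an immunoglobulin receptor of myeloid cells (0.08), Ckb, the brain form of creatine kinase (0.10), and Cd84, a receptor of leukocytes (0.16). Anxa5 ran nearest to Serpinh1, the collagen chaperone (0.06), Col5a1, a collagen chain (0.07), and Ptpn6, a phosphatase of blood cells (0.07). Anxa7 ran nearest to Nr3c1, the glucocorticoid receptor, Ubqln1, a ubiquitin-binding shuttle, and Top1mt, the mitochondrial topoisomerase (0.03, 0.03 and 0.04). A small distance is easier to reach for genes that vary little, as Anxa7 does.

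Genes of annexin-linked processes were taken from 9 lists with 65 genes, of which 45 were tested, 7 were too dim and 13 had no probe set named here. Of the 45 genes 14 rose, 6 fell and 25 were not called, where 8.75% of all genes rose and 22.2% fell. The risers include S100a6 and S100a4, which passed the brightness filter only through the BPD livers. The median difference of the 45 genes was 0.17 against -0.22 for all genes. With the signals as deposited 21 were higher and 3 lower, where 16.7% of all probe sets were higher and 9.68% lower. With quantile normalization 16 were higher and 2 lower, against 12.5% and 12.1% of all probe sets. Under each of the 3 scalings 15 of the 20 called genes passed the test, 13 of them higher and 2 lower. With any single mouse left out, 7 of the 14 risers and 3 of the 6 fallers kept the call.

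S100 proteins, the partners of the annexin tails, went both ways. S100a6, a partner of Anxa2 and Anxa11, gave 618, 630 and 334 in BPD livers 23, 28 and 36 and 71.4, 122 and 64.4 in GFP livers, and rose by 2.10 ± 0.27 (limma adjusted p = 0.00098). S100a4, a regulator of cell motility, gave 352, 443 and 301 against 63.3, 73.9 and 52.3 and rose by 1.95 ± 0.19. The mean GFP signals of S100a6 and S100a4, 85.9 and 63.1, lay below the brightness filter of 98.8. Both genes thus entered the test only through the BPD livers, where they are high. S100a1, a calcium sensor of muscle and other tissues, gave 1183, 1014 and 1503 against 2304, 2230 and 2692 and fell by 1.27 ± 0.21. In none of these 3 genes did the groups overlap, and the 3 calls held with any mouse left out. Groups without overlap were found for 12.7% of all probe sets with BPD higher and for 34.0% with BPD lower. S100a10, the tetramer partner of Anxa2, gave 5125, 3169 and 2041 in BPD and 4380, 2478 and 3305 in GFP livers, which overlapped. Its difference was -0.34 ± 0.35 (limma adjusted p = 0.48), and its other tested probe set was at -0.37.

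Among the EF-hand partners of Anxa7 and Anxa11, sorcin (Sri) gave 999, 1063 and 796 in BPD and 460, 499 and 329 in GFP livers and rose by 0.83 ± 0.19 (limma adjusted p = 0.012), although its other probe set was at 0.27. Pdcd6, also called ALG-2, fell by 0.55 ± 0.16, which was called neither on the deposited scale (-0.25) nor after quantile normalization (-0.12). Among fits with 1 mouse omitted, only that lacking BPD mouse 36 called it. The ALG-2 binders Pef1, Pdcd6ip and Tsg101 were at -0.43, -0.13 and -0.46 without a call, and the 4 tested probe sets of Pdcd6ip ranged from -0.84 to 0.17.

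Fpr2, the formyl peptide receptor that answers to Anxa1, gave 362, 634 and 420 in BPD and 229, 233 and 130 in GFP livers and rose by 0.89 ± 0.25 (limma adjusted p = 0.025), though it was not called if BPD mouse 28 or GFP mouse 31 was omitted. Pla2g4a, the cytosolic phospholipase A2 that releases arachidonic acid, rose by 1.19 ± 0.38, but was not called with quantile normalization, nor when BPD mouse 23, BPD mouse 28, GFP mouse 22 or GFP mouse 31 was omitted. Pla2g6, a calcium-independent phospholipase, fell by 0.62 ± 0.17 on the centred values and was not called under either other scaling, nor if BPD mouse 28, GFP mouse 22 or GFP mouse 31 was omitted. Alox5ap and Ptges, which serve leukotriene and prostaglandin synthesis, had differences of 0.99 ± 0.33 and 0.83 ± 0.34 that were not called, though Alox5ap was as deposited (1.29, limma adjusted p = 0.034).

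Of the plasminogen system that Anxa2 binds, 2 of 3 tested genes, both hepatocyte products, fell after centring. On the same values 22.2% of all genes fell, and 13 of 13 hepatocyte markers. Plg, plasminogen itself, fell by 0.87 ± 0.12 and Serpinf2, the plasmin inhibitor, by 1.04 ± 0.16 (limma adjusted p of 0.0013 and 0.0022), both with any mouse left out, while Plg was at -0.21 and not called with quantile normalization. Plaur, the urokinase receptor, was at 0.33 ± 0.21 without a call, and the activators Plat and Plau were too dim to test. Plat gave 264, 299 and 63.9 in BPD livers 23, 28 and 36 and 34.5, 69.6 and 26.6 in GFP livers, which overlapped.

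In the membrane repair list 1 of 7 tested genes was called, where 8.75% of all genes rose and 22.2% fell. Ahnak, the giant scaffold that binds Anxa2 and S100a10, gave 608, 711 and 328 in BPD and 177, 190 and 128 in GFP livers and rose by 1.29 ± 0.26 (limma adjusted p = 0.0071), with its other probe set at 0.07. Cav1 (0.72), Flot1 (0.27), Flot2 (-0.10), the calpains Capn1 (-0.11) and Capn2 (-0.01), and Chmp4b (-0.33) were not called. On the deposited scale Cav1 (1.02, limma adjusted p = 0.038) and Flot1 (0.58, 0.020) were called too. This makes 3 of the 7, against 16.7% of all probe sets higher there. Of the phosphatidylserine list 3 of 6 rose, namely the bridging protein Mfge8 (1.33 ± 0.33), the receptor Axl (1.27 ± 0.33) and the scramblase Plscr3 (0.60 ± 0.20). Mfge8 lost its call when BPD mouse 28 was omitted, Axl with BPD mouse 23, BPD mouse 28 or GFP mouse 22 omitted, and Plscr3 with BPD mouse 23, BPD mouse 28, GFP mouse 29 or GFP mouse 31 omitted. The other probe set of Plscr3 was at -0.01. Plscr1, Gas6 and Mertk were at 0.47, 0.25 and 0.17 without a call. Plscr1 was called under both other scalings (0.77 as deposited and 0.55 after quantile normalization) and Gas6 as deposited (0.55). Thus 5 and 4 of the 6 genes were higher there, against 16.7% and 12.5% of all probe sets.

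Of 11 tested genes of the cortical actin that annexins anchor, 5 rose and 1 fell after centring. Of all genes 8.75% rose and 22.2% fell on these values. Beta-actin (Actb, -0.35), Actn4 (-0.04), Lcp1 (0.11), Pfn1 (0.26) and Cfl1 (0.12) were not called. Under each other scaling 7 of the 11 were higher and none lower, and Pfn1 and Cfl1 were called too. Of all probe sets 16.7% were higher and 9.68% lower as deposited, and 12.5% and 12.1% with quantile normalization. Moesin (Msn) rose by 1.60 ± 0.35, thymosin beta-4 (Tmsb4x) by 1.23 ± 0.36, gamma-actin (Actg1) by 1.12 ± 0.19, alpha-actinin-1 (Actn1) by 0.89 ± 0.19 and ezrin (Ezr) by 0.67 ± 0.17. Radixin (Rdx), of the same family as moesin and ezrin, fell by 0.57 ± 0.17, which was not called with either other scaling, nor when BPD mouse 28, BPD mouse 36, GFP mouse 22 or GFP mouse 31 was omitted. Ezrin and Tmsb4x each lost the call when BPD mouse 23 or BPD mouse 28 was omitted, Ezrin also when GFP mouse 29 was, and Tmsb4x also when GFP mouse 22 was. The other probe set of Ezr was at -0.29 and that of Actn1 at 0.26. Of 3 partners of Anxa6, Rasa1 (0.04), Prkca (-0.10) and Sptbn1 (0.11) were not called, and their differences lay within their SE of 0.18 to 0.20.

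**Figure D4:**
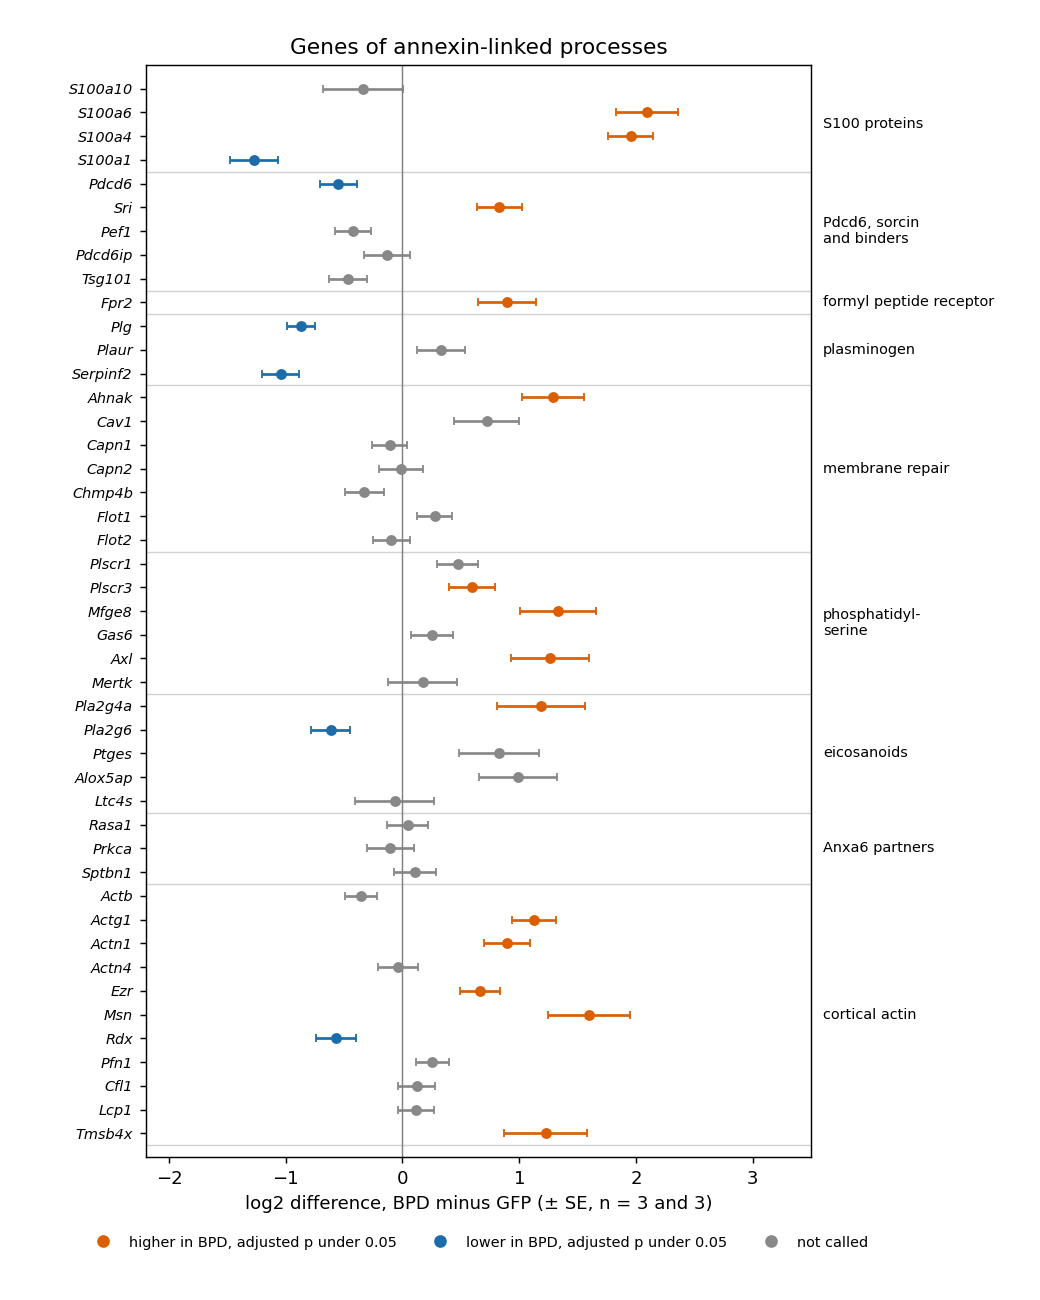
Log2 difference BPD minus GFP (x axis, ± SE of the limma fit, n = 3 and 3) of the 45 tested genes of 9 annexin-linked lists, named at the right. Orange points rose, blue points fell and grey points were not called at a limma adjusted p under 0.05. S100a6 and S100a4 lie farthest to the right at 2.10 and 1.95, and S100a1 farthest to the left at -1.27. Both S100a6 and S100a4 passed the brightness filter only through the BPD livers.

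Some annexin probe sets lay outside the comparison. The probe set shared by Anxa11 and further gene names gave 270 to 286 in BPD and 281 to 366 in GFP livers, with a difference of -0.45 ± 0.17 that was not called (limma adjusted p = 0.074) and cannot be assigned to 1 gene. Anxa8, Anxa9, Anxa10 and Anxa13, read by 6 probe sets, were all too dim to test. Anxa9 gave 105, 120 and 75.3 in BPD and 38.0, 42.2 and 14.9 in GFP livers, without overlap, and its difference without the filter was 1.01 ± 0.30 (limma adjusted p = 0.053). In the same fit 1 of 2 Anxa10 probe sets was lower (-0.93 ± 0.21, adjusted p = 0.018, against 10.8% of probe sets), with signals of 5.15 to 26.6 that lie near or below the added constant.

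Array medians ranged from 174 to 197 in BPD and from 135 to 157 in GFP livers, and between 11.8% and 16.0% of probe sets per array lay below the added constant. The log2 ratio of 3' to 5' signal of the Gapdh controls ran from -0.44 to -0.21 in BPD and from -0.35 to -0.15 in GFP livers, which overlapped. No single-symbol probe set named Pfkfb1, the liver form of PFK-2/FBPase-2, so the injected enzyme was not checked here; the tested probe set of Pfkfb3 was at -0.08 ± 0.25 (limma adjusted p = 0.837).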

How the data were processed

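Liver RNA of 6 mice, 3 BPD and 3 GFP, was read on 1 array each. The deposited intensities are MAS5 signals on a linear scale, per the submitters' processing notes; no source used here gives the software version or target value. With 2% trimmed from either end, every array averaged 499.9. Values were analysed as log2(signal + 16.3313), the constant being 10% of the median of all values, and centred on array medians because these differed 1.46-fold (a difference over 25% asked for centring). The 13575 of 22626 non-control probe sets with a mean above the 40th percentile were tested with limma 3.58.1 in R 4.3.3 (eBayes with trend, 2-sided, 4 residual and 5.44 prior degrees of freedom). The number of arrays limits the precision. Errors of differences are SE, and those of signals SD. The test was checked on simulated data. Names came from the platform annotation, and the Entrez identifiers of 20351 of 20380 probe sets with a single symbol matched RefSeq. A gene is its brightest tested probe set; named genes are all members, the 3 nearest genes of each called member (without clone names) and members of the lists. Pairs were tested with SciPy 1.17.1. All 6 columns were used. The members and lists were chosen with earlier results of these data known, and support nothing by their choice. Nothing in the labels says more of the replicates than that they are separate mice.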

Additional observations from a re-analysis of the deposited data

How the results depend on the processing

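Anxa1 kept its direction and call under all 17 alternatives, and Anxa2 under the 16 that could test it. No alternative that called a member turned its sign. The count of 4 higher annexin genes was 2 when multi-transcript probe sets were dropped, where only 4 genes could be tested (Anxa2, Anxa5 and Anxa4 drop out), and 2 to 4 with a mouse left out; it was 2 without BPD mouse 23, BPD mouse 28, GFP mouse 22 or GFP mouse 31. The same values, 2 and 2 to 4, hold for the count of higher annexin probe sets. Anxa5 was not called without the filter (adjusted p = 0.054). The count of 1 lower annexin gene was 0 in limma under the deposited scaling, with quantile normalization and with the Gapdh ratio as a covariate (1, 0 and 1 at an unadjusted p under 0.05), 2 with array weights, and 0 to 1 with a mouse left out. The count of 2 lower annexin probe sets was 1 under the deposited scaling, 1 under quantile normalization, and 1 to 2 with a mouse left out. The 14 higher partner genes became 21 with the signals as deposited, 16 after quantile normalization and 7 to 17 with a mouse left out (7 without BPD mouse 28 and 9 without BPD mouse 23), and the 6 lower ones 3 with the deposited scaling, 2 with quantile normalization, 3 with the Gapdh ratio and 3 to 7 with a mouse left out (3 without GFP mouse 22 or GFP mouse 31). The number of pairs without overlap was 16 after quantile normalization and with either other added constant, and 16 to 18 with a mouse left out, where fewer arrays leave less room for overlap; these alternatives for pairs were chosen after seeing the data. The causes of these changes were not tested. With the mean of all tested probe sets per gene, the counts were 4 and 1. No paired analysis was possible because the groups share no mouse numbers. Signals below the added constant carry no order.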
